A study of Mus musculus with 12 samples.

Results

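The sites described here are CpGs that were highly methylated in testicular spermatozoa and had lower levels in every caput sample. They were selected on the measured values: among autosomal sites, those with a methylation level of at least 75% in each of the 3 testicular samples and of at most 65% in each of the 3 caput samples were taken. This rule gave 113 of the 13917 autosomal sites in the deposited count table, which holds 14149 sites in all. They make up 1.91% of the 5908 autosomal sites that met the testicular threshold, and the other 5795 of these serve below as the comparison. Their testicular and caput levels were used for the choice and are given as a description only. The corpus and cauda samples took no part in the choice.

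Testicular spermatozoa and spermatozoa of 3 epididymal segments, caput, corpus and cauda, were profiled by reduced representation bisulfite sequencing with 3 samples per origin. This method reads short CpG-rich fragments cut by MspI and gives the methylation level of a site as the percent of reads that kept a cytosine. All groups came from untreated mice on the B6D2F1 background that carried the transgene Tg(CAG/su9-DsRed2, Acr3-EGFP)RBGS002Osb and were 10 to 12 weeks old. These animals carry a red fluorescent protein in mitochondria, driven by the broadly active CAG promoter, and a green one in the acrosome, driven by the promoter of the acrosin gene Acr, and sorting by flow cytometry took cells positive for both colours. Cauda spermatozoa were flushed out by retrograde perfusion through the vas deferens and spun down, while cells of the testis, caput and corpus came from mechanically dissociated tissue. The study names sorting for all origins, but its account of the steps gives it only after tissue dissociation. The way of collection thus differs between corpus and cauda, and its part in their difference was not tested. Each sample was a pool of 4 mice, so the spread between samples is that between pools. The transgene is shared by all groups, and no group without it was analysed here.

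Spermatozoa leave the testis immotile and gain motility and the capacity to fertilise while they pass from the caput through the corpus to the cauda, where they are stored. Their DNA is packed tightly by protamines and their methylation pattern is largely laid down in the germ line before meiosis. At most CpGs outside promoters and CpG islands this pattern is high, and imprinted regions and promoters of germline genes are set differently in sperm and in somatic cells.

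The 113 sites formed 96 loci when sites no more than 500 bp apart were joined. Of these loci, 80 held 1 site, 15 held 2 and 1 held 3, and no locus spanned more than 30 bp. Sites of 1 locus are read on the same DNA fragments and are not independent. No CpG was represented by both of its strands, and 58 sites lay on the plus and 55 on the minus strand. Coverage of these sites was moderate, with a median of 46, 55 and 48 reads in testicular replicates 1, 2 and 3 and of 30, 42 and 32 reads in the caput replicates. It was 18, 43 and 30 reads in corpus and 42, 34 and 44 reads in cauda replicates 1, 2 and 3. At 39 reads, the median over all members and samples, a level of 51.3% has a 95% Wilson interval of 36.2 to 66.1%, and at 10 reads, the lowest coverage, a level of 50% has one of 23.7 to 76.3%. These intervals cover counting error only.

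Caput replicate 1 stood apart from the other caput samples. Mean methylation of the members was 27.0% in caput replicate 1, 52.3% in replicate 2 and 50% in replicate 3, and replicate 1 was the lowest of the caput samples at 93 of the 113 members. At the other 5795 sites its mean was also the lowest of the caput samples, at 85.8% against 91.8% and 92.8%. Of the 5908 high testicular sites, 583 were at most 65% in caput replicate 1 alone, 64 in replicate 2 alone and 69 in replicate 3 alone. Corpus replicate 1 had the lowest coverage and the widest scatter over the members, with an SD over sites of 25.2 percentage points against 12.5 and 18 in replicates 2 and 3. The group means, the calls and the order of corpus and cauda samples are therefore given with and without these samples, and the other results with all of them.

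In testicular spermatozoa the members had a mean level of 93.3% ± 0.426 (SD, n = 3 samples), and in caput of 43.1% ± 14 (SD, n = 3), or 51.2% ± 1.60 (SD, n = 2) without caput replicate 1. The caput level was thus intermediate in replicates 2 and 3, where only 4 members in each were at most 25%, while 54 members were at most 25% in replicate 1. The rule fixed the direction of this difference, so it was not tested. Which replicate set the limit was read by leaving each out of the choice in turn. Without caput replicate 1 the rule gave 119 sites, and replicate 1 was at most 65% at 113 of them (95%), against 16.7% of all high testicular sites. Without caput replicate 2 it gave 224 sites, of which replicate 2 was at most 65% at 50.4%, against 6.16% of all high testicular sites. Without caput replicate 3 it gave 294 sites, of which replicate 3 was at most 65% at 38.4%, against 5.06%. The number of members was thus set by caput replicates 2 and 3 and hardly by replicate 1.

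The thresholds cut through a continuous range. The member with a caput value closest to the limit, near the pseudogene Rps2-ps6, lay at chr14:76226281, with 29.1%, 63.6% and 64.8% in caput replicates 1, 2 and 3. The nearest site outside, at chr8:8657490 in an intron of Efnb2, had 41.2%, 65.2% and 50%, and lies 8 bp from a member. In all, 56 members had a highest caput value of 60% or more, and 57 further high testicular sites had one above 65% and up to 70%. On the testicular side, the member at chr11:82691035 had 85.0%, 75% and 77.1%, and the nearest site outside, at chr6:127406432, had 89.6%, 95.3% and 74.2%. Few sites lay near that threshold, with 19 members having a lowest testicular value of at most 80% and 4 sites missing the rule by up to 5 percentage points.

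In corpus, the mean over the members was between their mean caput and testicular levels, although single members lay below the 1 or above the other. This mean was 69.9%, 75.6% and 76.0% in corpus replicates 1, 2 and 3, or 73.8% ± 3.43 (SD, n = 3), and 75.8% ± 0.338 (SD, n = 2) without corpus replicate 1. In cauda it was 94.3%, 94.3% and 92.8%, or 93.8% ± 0.875 (SD, n = 3). The cauda mean thus lay within 1 percentage point of the testicular mean of 93.3%, and each corpus sample lay below each cauda sample. The other 5795 high testicular sites moved less, with a corpus mean of 93.6% ± 0.651 and a cauda mean of 96.4% ± 0.0867 (SD over 3 samples).

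Corpus was compared with cauda at each of the 14149 sites by a logistic regression that pools the reads of a group. Likelihood-ratio p-values received Benjamini-Hochberg adjustment over all sites, and a call needed more than 25 percentage points of difference together with an adjusted p below 0.01. Of the 113 members, 32 (28.3%) were called higher in cauda than in corpus, against 1.24% of all sites and 1.90% of the other high testicular sites. Without corpus replicate 1, 24 members (21.2%) were called, 21 of them among the 32, against 1.10% of all sites and 1.76% of the other high testicular sites. Of the 119 sites chosen without caput replicate 1, the test without corpus replicate 1 called 25 (21%), against 1.74% of the high testicular sites not chosen. No member was called lower in cauda by logistic regression, a call made at 2.90% of all sites but likewise at 0 of the other high testicular sites. At an unadjusted p under 0.05, 1 member was lower in cauda by logistic regression, against 20.5% of all sites and 9.16% of the other high testicular sites. By limma 0 members were, against 6.35% and 2.71%. Logistic regression counts reads and takes no account of the scatter between samples. limma, which does, called 0 members higher in cauda and 0% of all sites at the same thresholds, and 62 members (54.9%) had an unadjusted p under 0.05 with a higher cauda level, against 3.84% of all sites and 6.07% of the other high testicular sites. An overdispersion term in the logistic regression likewise left 0 calls, with 51 members higher at an unadjusted p under 0.05, against 3.90% of all sites and 7.61% of the other high testicular sites.

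Set side by side by sample, every corpus sample was below every cauda sample at 55 of the 113 members (48.7%), against 4.23% of all sites and 7.23% of the other high testicular sites. Without corpus replicate 1, where fewer samples have to be in order, this held at 72 members (63.7%), against 7.68% of all sites and 14.1% of the other high testicular sites. The reverse order was found at 0 members, against 6.88% of all sites and 2.30% of the other high testicular sites. The pooled cauda level was above the pooled corpus level at 111 members (98.2%), against 56.0% of the other high testicular sites and 38.4% of all sites. It was equal at 1 member and lower at 1 (0.885%), against 35.3% and 43.7% for lower levels. The median difference over the members was 17.7 percentage points, against 0.784 over the other high testicular sites. Of the 32 members called, 27 had all corpus samples below all cauda samples.

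The members differed in how far they were from the testicular level in corpus. At 22 members every corpus sample was already at least 75%, a level that 84.3% of the other high testicular sites held in all corpus samples. At the other extreme, 3 members were at most 65% in every corpus sample, against 5 of the other 5795 sites. This small count depended on the samples used, since it was 5 without corpus replicate 1, 17 without replicate 2 and 9 without replicate 3. In single samples, 44, 20 and 30 members were at most 65% in corpus replicates 1, 2 and 3. Across the 113 members, the Pearson correlation between corpus samples was 0.221, 0.196 and 0.119 for the pairs 1 and 2, 1 and 3, and 2 and 3, so the corpus samples ranked the members in loosely related orders. That between mean caput and mean corpus level was 0.0258, and the points of both share coverage and fragments within loci. The rule limited the range of the caput levels, so this value is a description only.

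The 3 members with low levels in every corpus sample were at Plac8, Gata2 and an intergenic site near the lincRNA gene B020004C17Rik. Plac8 encodes a small cysteine-rich protein, and Gata2 encodes a zinc finger transcription factor of blood stem cells and was added after its values were seen. Its member lay at chr6:88203156, in the promoter class, within an intron and 1289 bp from a transcription start site, with 76.2%, 92.8% and 88.1% in testicular samples, 35.7%, 54.1% and 52.3% in caput samples, 43.8%, 55.2% and 63.3% in corpus samples and 90.5%, 90.3% and 82.1% in cauda replicates 1, 2 and 3. Caput and corpus values overlapped here and all lay below those of the testicular and cauda samples. The pooled level was 31.7 percentage points higher in cauda than in corpus (logistic regression, adjusted p = 6.16e-09). In an intron of Plac8, at chr5:100557145, the testicular samples were at 83.9%, 96.3% and 94.2%, caput at 37.5%, 63.5% and 39.2%, corpus at 33.3%, 52.3% and 65% and cauda at 92.7%, 91.4% and 90.1%. Its caput and corpus samples overlapped and lay below all testicular and cauda samples, and the pooled difference between cauda and corpus was 40.2 percentage points (logistic regression, adjusted p = 8.17e-12). The adjusted p by limma was 0.115 at Gata2 and 0.0999 at Plac8.

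The lowest mean corpus levels, with each locus ranked by its lowest member, were found at 6 loci, of which 4 also had the largest differences between cauda and corpus. In an intron of Sdk2, which encodes an adhesion protein of retinal synapses, the site at chr11:114015837 had 89.7%, 94.5% and 96.1% in testicular samples, 14.3%, 43.5% and 59.4% in caput samples, 14.8%, 68.6% and 29.2% in corpus samples and 91.0%, 97.4% and 92.6% in cauda replicates 1, 2 and 3. The corpus mean of 37.5% ± 27.8 (SD, n = 3) was the lowest of all members and did not exceed the caput mean of 39.1%. At chr3:121713554, which lies 1126 bp from the start of the lincRNA gene Gm43607 and 9983 bp from that of F3, encoding tissue factor, corpus replicates 1, 2 and 3 were at 33.3%, 73.3% and 15.6% and cauda replicates at 100%, 100% and 79.2%. It had the largest difference of pooled levels, 47.7 percentage points (logistic regression, adjusted p = 2.00e-12). At the intergenic site chr14:57034389, 19255 bp from the start of B020004C17Rik and 23334 bp from that of the connexin gene Gja3, corpus replicate 1 stood at 12.5% and replicates 2 and 3 at 60.4% and 60%. All 3 cauda samples there were between 96.6% and 100%, and the pooled levels differed by 47.2 percentage points (logistic regression, adjusted p = 5.87e-20). By limma the adjusted p was 0.126 at the Sdk2 site, 0.199 at the Gm43607 site and 0.115 at the B020004C17Rik site, short of the threshold.

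Lpar3, a receptor for lysophosphatidic acid, held a member in an intron at chr3:146257643. Its caput samples were at 48.0%, 63.6% and 51.9%, its corpus samples at 64.3%, 74.0% and 22.6% and its cauda samples at 94.2%, 100% and 95.8%. Corpus replicate 3 alone lay below the caput range, and corpus and cauda did not overlap (40.9 percentage points, logistic regression, adjusted p = 8.03e-14). With limma the adjusted p at this site was 0.135. The neighbouring pair in an intron of Rnf220, a ubiquitin ligase gene, at chr4:117478247 and chr4:117478253, scattered widely in corpus. The first of these had 10.0%, 42.9% and 100% in corpus replicates 1, 2 and 3, from 10, 14 and 26 reads, and the second 10.0%, 71.4% and 100%. Both sites therefore covered nearly the whole range in corpus, and only the first passed the logistic regression, with an adjusted p by limma of 0.786.

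Usp10 and Tenm2 were the other loci among the 6 with the largest differences of called members. In an exon of Usp10, which encodes a deubiquitinating enzyme, 245 bp from a transcription start site at chr8:119952407, levels were 92.1%, 91.5% and 91.3% in testicular samples, 28.9%, 61.1% and 55.6% in caput samples, 66.7%, 57.6% and 52.0% in corpus samples and 100%, 96.3% and 100% in cauda replicates. The corpus samples here agreed within 15 percentage points and lay far below the cauda samples. The difference of pooled levels was 41.1 percentage points (logistic regression, adjusted p = 9.10e-10), and limma gave an adjusted p of 0.0244, short of the threshold. The 1 member under 0.01 by limma lay in an exon of the antisense gene Gm16287, at chr4:139176083 (limma, adjusted p = 0.00876), and its difference of 22.8 percentage points was under the threshold of 25. In an exon of Tenm2, encoding a teneurin of the neuronal cell surface, the site at chr11:36221442 had 50%, 41.9% and 78.6% in corpus samples and 92.1%, 100% and 93.3% in cauda. Its caput samples were at 20%, 44.4% and 30.4%, and their mean of 31.6% placed it among the 8 loci with the lowest mean caput level.

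The lowest mean caput levels, with each locus again ranked by its lowest member, belonged to 8 loci. The lowest of all was an intergenic site at chr9:43420114, 24324 bp from the start of the lincRNA gene Gm47475 and 91119 bp from that of Trim29, with 88.0%, 88.0% and 95% in testicular samples, 23.8%, 35.0% and 23.8% in caput samples, 42.9%, 61.1% and 80% in corpus samples and 88.5%, 100% and 80% in cauda replicates. Its caput replicates lay close together, and its coverage was 10 to 26 reads. It was called higher in cauda by 29.2 percentage points (logistic regression, adjusted p = 0.00264), although corpus replicate 3 and cauda replicate 3 had the same level. Pex7, the receptor that imports enzymes with a type of peroxisomal targeting signal, held an intronic member at chr10:19893437 with 31.8%, 13.9% and 37.0% in caput samples, 90.0%, 55.0% and 80.8% in corpus samples and 100%, 100% and 95.7% in cauda. It was called higher in cauda than in corpus by 25.4 percentage points (logistic regression, adjusted p = 8.10e-05). The adjusted p by limma was 0.138 at the Pex7 site and 0.373 at the Gm47475 site.

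At other loci of this group caput replicate 1 was far lower than the others. In an intron of the tryptophanyl-tRNA synthetase gene Wars, 1028 bp from a transcription start site at chr12:108887389, caput replicates 1, 2 and 3 were at 5.56%, 25% and 60%, and corpus replicates at 100%, 90.7% and 85.3%. Near Cks2, which encodes a subunit of cyclin-dependent kinases, the site at chr13:51642486 had 7.14%, 34.3% and 53.3% in caput samples and 77.3%, 92.0% and 37.5% in corpus. In an intron of Prdm11, 280 bp from a transcription start site at chr2:93014190, caput samples were at 4.35%, 50% and 38.9%. At each of these 3 loci caput replicate 1 was the lowest caput sample, and none of them was called between corpus and cauda. At the intergenic site chr3:101803974, whose nearest start is that of Mab21l3, caput replicate 1 was at 0% of 23 reads, which allows a share of up to 13.0%, and replicates 2 and 3 were at 51.9% and 39.3%. The corpus samples there were at 100%, 76.9% and 73.3%, close to the testicular values of 83.3%, 91.9% and 77.1%.

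The pair near the lincRNA gene Gm12962, at chr4:131630916 and chr4:131630919, combined low caput with high corpus levels. The first site had 36.4%, 7.14% and 45.8% in caput replicates 1, 2 and 3, 95%, 95.2% and 100% in corpus samples and 100% in all 3 cauda samples. Here caput replicate 2 was the lowest, and every corpus sample was above 90%. A member in an exon of Lrp5, the Wnt co-receptor, at chr19:3652157, had 28.0%, 61.9% and 15.4% in caput samples. Its 3 corpus samples, on 18, 21 and 10 reads, and its 3 cauda samples, on 13, 16 and 28 reads, were all at 100%. Its level did not differ between corpus and cauda. It was the only member at the 47 genes chosen as a list of Notch, Wnt, TGF-beta and hedgehog signalling, which had 24 high testicular sites in the table and does not hold every gene of these pathways. Outside the list, and added after their values were seen, the Wnt ligand gene Wnt5b and the Wnt regulator gene Nkd1 held members in introns. The Wnt5b site, at chr6:119451980, had 14.9%, 57.6% and 64.4% in caput samples, 67.4%, 54.2% and 46.0% in corpus samples and 86.1%, 79.1% and 86.6% in cauda. Its corpus and cauda samples did not overlap, and it was called higher in cauda by 30.1 percentage points (logistic regression, adjusted p = 1.19e-08, limma adjusted p = 0.513). The Nkd1 pair, at chr8:88538435 and chr8:88538457, differed by 15.1 and 20.5 percentage points and was not called.

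In cauda, 104 of the 113 members (92.0%) were at least 75% in every sample, as were 96.9% of the other high testicular sites. Cauda levels were at most 65% in 1, 2 and 1 members in replicates 1, 2 and 3, and no member was at most 65% in all of them. The lowest mean cauda level was found in an intron of Sctr, the secretin receptor gene, at chr1:120045134. Its testicular samples were at 79.5%, 94.4% and 100%, caput at 37.5%, 60% and 33.3%, corpus at 100%, 68.8% and 84.0% and cauda at 71.4%, 54.5% and 66.7%. This was the 1 member with a lower pooled level in cauda than in corpus (81.6% in corpus samples and 63.5% in cauda), and the difference did not pass the test (logistic regression, adjusted p = 0.0411). The intergenic site chr11:82691035, 34108 bp from the pseudogene Gm11421, had 60%, 69.4% and 47.1% in corpus samples and 63.3%, 71.4% and 59.2% in cauda, and its corpus and cauda samples overlapped. The intergenic site chr11:82508766, whose nearest start is that of Tmem132e, had 100%, 50% and 67.4% in corpus samples and 86.6%, 63.8% and 69.5% in cauda. These 3 sites were the only members whose mean cauda level was more than 10 percentage points below the mean testicular level (2.65%), a share that was 1.57% among the other high testicular sites and 3.31% among all sites.

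Other loci with low mean cauda levels were nearer to their testicular values. At chr11:56151268, 110258 bp from the start of the neuromedin U receptor gene Nmur2, coverage was high, at 74 to 239 reads, and levels were 80.8%, 92.9% and 80.8% in testicular samples and 84.1%, 78.1% and 74.5% in cauda replicates. In an intron of Rab40b, at chr11:121386348, cauda replicates 1, 2 and 3 were at 88.9%, 68.8% and 80.8%. At both of these, 1 cauda replicate was below 75% and the testicular and cauda ranges overlapped.

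Of the 10 gene lists examined, 3 held members. The only locus with 3 members lay in an exon of Krt18, from the list of general epithelial genes. Krt18 encodes a keratin of simple epithelia. Its sites at chr15:102029511, chr15:102029529 and chr15:102029532 lie 1331 to 1352 bp from a transcription start site. In caput replicates 1, 2 and 3 the first site had 48.8%, 54.2% and 33.3% and the third 42.9%, 56.0% and 53.3%. The middle site had 100%, 94.5% and 94.9% in testicular samples, 46.5%, 45.8% and 46.7% in caput samples, 67.7%, 76.3% and 74.1% in corpus samples and 100%, 95.5% and 92.9% in cauda replicates. Its caput replicates, replicate 1 included, differed by less than 1 percentage point, the smallest spread of any member. Its pooled cauda and corpus levels differed by 23.2 percentage points, under the threshold of 25, while the first site passed with 25.3 (logistic regression, adjusted p = 6.17e-06, limma adjusted p = 0.158) and the third, with 11.5, did not. The list of general epithelial genes had 17 sites in the table, of which 11 were high in testicular spermatozoa.

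Runx3, a transcription factor of T cells and other leukocytes, held the 1 member of the leukocyte list, which had 9 high testicular sites. It lay in an intron at chr4:135154895, 459 bp from a transcription start site, and had 97.4%, 100% and 100% in testicular samples, 25%, 62.8% and 47.6% in caput samples, 27.3%, 90.9% and 95.8% in corpus samples and 95.8%, 100% and 100% in cauda replicates. Corpus replicate 1, on 11 reads, was near the level of caput replicate 1, with which it shares only a number. Corpus replicates 2 and 3 had values near the cauda samples. No member lay at the 39 epididymal epithelial genes (1 high testicular site), the 18 genes of stroma, muscle and endothelium (3), the 14 genes of DNA methylation enzymes and partners (6) or the 21 genes named by the study (9). The lists of sperm-methylated imprinted genes, of germline promoters and of maternally imprinted genes had 1, 0 and 0 high testicular sites and no member. That 1 site was near H19, and a further high testicular site, 31631 bp from a start of Rasgrf1, was not counted.

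The sperm identity of the samples was read at the few marker sites in the table. The site near H19, which is methylated in sperm, was at 97.8%, 96.7% and 92.8% in testicular samples, 87.1%, 93.2% and 93.7% in caput samples, 97.1%, 94.1% and 89.3% in corpus samples and 98.9%, 98.4% and 97.1% in cauda replicates 1, 2 and 3. The 4 promoter sites of Rasgrf1, a gene of the same list, had a mean of at most 3.57% in every sample. Whether they, or the distant site given next, lie in the part of this locus that is methylated in sperm was not examined. The promoter values therefore do not bear on sperm identity. A site at chr9:89878277, 31631 bp from a start of Rasgrf1, was at 95.5%, 93.5% and 82.1% in testicular samples. It had 49.0%, 100% and 86.5% in caput samples, 50%, 64.2% and 60% in corpus samples and 100%, 92.1% and 93.3% in cauda replicates. Of the 28 germline genes whose promoters are unmethylated in sperm and methylated in somatic cells, 2 had promoter sites, Dazl with 3 and Tex101 with 2. Their mean level was 6.66%, 1.33% and 3.07% in testicular samples, 78.9%, 51.9% and 52.0% in caput samples, 32.3%, 30.5% and 13.7% in corpus samples and 1.43%, 3.47% and 1.69% in cauda replicates. The summed level of these 5 sites was 395, 259 and 260 in caput replicates 1, 2 and 3. Dazl, with the most sites, had 76.5%, 63.8% and 47.1% in these and 33.8%, 25.5% and 11.7% in the corpus replicates. Tex101 had 82.6%, 33.9% and 59.4% in caput and 30.0%, 38.0% and 16.7% in corpus, so the 2 genes ranked caput replicates 2 and 3, and corpus replicates 1 and 2, in opposite orders. At the 7 promoter sites of the maternally imprinted Mcts2 and Zrsr1, the only 2 of 16 such genes with promoter sites, the mean was 44.5%, 9.70% and 13.8% in caput samples, 0%, 8.46% and 9.66% in corpus and at most 7.54% in testicular samples and 3.67% in cauda samples. Both genes stood highest in caput replicate 1, in which the members stood lowest. In corpus replicate 1, where the members were also lowest among the corpus samples, both genes were at 0%. The mean over the Dazl and Tex101 sites was highest of the corpus samples there, at 32.3%. The part of such marker signal in the levels of the members was not tested.

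By position, 26 members (23.0%) lay within 2 kb of a transcription start site, 5 (4.42%) in exons, 39 (34.5%) in introns and 43 (38.1%) between genes. The other high testicular sites were at 15%, 9.72%, 38.7% and 36.6%, and all sites at 43.7%, 6.28%, 21.8% and 28.2%. The median distance to the nearest start of a protein-coding gene was 16813 bp for the members and 21963 bp for the other high testicular sites. Repeats, taken from the soft-masked bases of the genome, held 8.85% of the members, 19.6% of the other high sites and 16.1% of all sites. The window of 50 bp on either side of a member held a median of 3 CpGs, as it did for the other high testicular sites. Chromosome 4 had the most members, with 15 of its 389 high testicular sites (3.86%), and chromosome 17 the fewest, with 1 of 278 (0.360%). These shares were not tested.

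Levels are given next by positional class. Promoter members had a mean of 32.5%, 51.4% and 49.1% in caput replicates 1, 2 and 3, and their corpus mean was 72.8% ± 1.60 (SD, n = 3). Intronic members had 23.2%, 53.2% and 53.0% in caput samples and 74.1% ± 1.64 in corpus, and intergenic members 26.1%, 52.5% and 50.3% in caput samples and 73.9% ± 7.13 in corpus, where replicate 1 was at 65.7% and replicates 2 and 3 at 78.3% and 77.8%. The 5 exonic members, at 4 loci, had 34.9%, 48.2% and 29.6% in caput samples, with replicate 3 the lowest, and 76.2% ± 4.55 in corpus. Cauda means were 93.9% ± 1.05, 94.6% ± 0.169 and 92.6% ± 1.98 for promoter, intronic and intergenic members and 96.8% ± 1.75 for exonic ones. Of the members called higher in cauda, 7 were in promoters, 1 in an exon, 14 in introns and 10 between genes, or 26.9%, 20%, 35.9% and 23.3% of the members of these classes. The same test called 1.96%, 1.24%, 1.92% and 2.03% of the other high testicular sites of these classes and 0.501%, 1.12%, 2.24% and 1.63% of all their sites.

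The members within 2 kb of any transcription start site lay at 24 loci, and the genes assigned to them, which need not be those of that start, were Gm34777, R3hdm2, Ormdl3, Vat1, Rab40b, 1700034J04Rik, Rgs6, Wars, Gm47918, Zfhx2os, Lima1, Krt18, Hoxd3, Prdm11, Gm43607, Zdhhc18, Runx3, Rell1, Gm15831, Gata2, Tpi1, Tshz3, Utp4 and Usp10. The site assigned to Hoxd3 lies nearest to the start of Hoxd4, both homeobox genes of body patterning, and that assigned to Vat1 to the start of Rnd2. The sites assigned to Rgs6, Tshz3 and Gm34777 lie within these genes but 87323, 12080 and 5499 bp from their starts, with 4930423C22Rik, Gm37452 and Gm48884 as the other genes at these sites. Exonic members outside promoters were in Tenm2, Lrp5, the antisense gene Gm16287 and Kctd7. Introns with members belonged to Clasp1, Sctr, Sox13, Pex7, Slc41a2, Tbc1d15, Tmem100, Sdk2, Slc25a21, Tunar, Retreg1, Efcab6, Usp7, Snx29, Tcf4, A930007I19Rik, Hs2st1, Lpar3, Rnf220, Phc2, Nphp4, Gm7854, Ldb2, Plac8, Myo1h, Gm44196, Wnt5b, Erf, Gm29683, Fgfr2, Insr, Efnb2 and Nkd1. The Fgfr2 pair lies in an intron of Lhpp as well. Intergenic members had their nearest start at genes that include 4930459C07Rik, Nmur2, Tmem132e, Gm11421, Rgs9, Nptx1, Cks2, B020004C17Rik, Rps2-ps6, Gm8238, 2310043O21Rik, Opa1, 1700030A11Rik, Slc12a2, Gm8731, AC102255.3, Mirt1, 9430093N23Rik, Gm24136, Mab21l3, Gm22477, Gm25002, Gm12962, Grrp1, Gm16287, Pax7, Uncx, 4930590J08Rik, Gm45092, Gm32098, Gm48277, Gm47475, Gm24225 and Gm9487. The nearest start is a position only and was not tested for regulation.

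Other sites of the table within 100 bp of a member numbered 29, next to 22 members, and 23 of them were also at least 75% in each testicular sample. These 23 sites had a mean of 41.5%, 71.6% and 66.6% in caput replicates 1, 2 and 3, 77.3%, 83.0% and 76.3% in corpus samples and 97.8%, 98.2% and 96.1% in cauda. Although each was above 65% in at least 1 caput sample by construction, 17 of them were at most 65% in at least 2 caput samples. Neighbouring sites are read on the same fragments and are not independent of the members.

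Motifs were searched on both strands within 50 bp of each CpG. The PU.1 core GAGGAA was in 17.7% of the member windows, 11.0% of those of the other high testicular sites and 13.3% of all. The E-box CANNTG was in 38.9%, 34.3% and 29.6%, the androgen and glucocorticoid receptor half-site AGAACA in 10.6%, 8.09% and 6.71%, and the AP-1 motif TGANTCA in 2.65%, 2.30% and 1.84%. The FOX motif TGTTTAC was in 1.77%, 1.59% and 1.31% and the GATA motif GATAAG in 4.42%, 3.19% and 2.86%. The GC box GGGCGG was in 3.54% of the member windows, 2.36% and 9.23%, and the C/EBP motif TTGCGCAA in 0 members, 0.0518% and 0.0919%. The MspI site CCGG, at which the fragments start, was in 93.8%, 95.3% and 94.9%. A match describes the letters of a window and no binding, and the shares were not tested.

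The sequences of 6 loci were chosen after their values were seen, as the extremes of the measures above and the loci of the epithelial and leukocyte lists, and are shown for the CpGs and motifs around the members. They run 40 bases to either side of the member CpGs on the plus strand of GRCm38, with the member CpGs in capitals.
Gm47475, lowest mean caput level, chr9:43420074-43420155: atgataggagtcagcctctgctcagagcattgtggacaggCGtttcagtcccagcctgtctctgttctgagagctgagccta
Sdk2, lowest mean corpus level, chr11:114015796-114015877: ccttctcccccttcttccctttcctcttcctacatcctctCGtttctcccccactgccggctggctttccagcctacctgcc
Sctr, lowest mean cauda level, chr1:120045093-120045174: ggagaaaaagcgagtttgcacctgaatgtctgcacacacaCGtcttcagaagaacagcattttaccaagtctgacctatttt
Gm43607, largest difference between cauda and corpus, chr3:121713514-121713595: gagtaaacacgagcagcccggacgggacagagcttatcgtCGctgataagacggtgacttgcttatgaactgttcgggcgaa
Krt18, the locus with 3 members, chr15:102029470-102029572: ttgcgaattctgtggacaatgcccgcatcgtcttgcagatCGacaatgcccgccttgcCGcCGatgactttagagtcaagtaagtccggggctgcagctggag
Runx3, the member of the leukocyte list, chr4:135154854-135154935: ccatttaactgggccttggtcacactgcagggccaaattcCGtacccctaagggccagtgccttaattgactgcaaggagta
The Krt18 and Gm43607 windows held 8 CpGs each, while those of Gm47475 and Runx3 held only the member CpG and those of Sdk2 and Sctr held 2. Of the motifs above, the PU.1 core and the MspI site were found in the Sdk2 window, the receptor half-site and the E-box in the Sctr window, the FOX motif, the GATA motif and the MspI site in the Gm43607 window, the E-box and the MspI site in the Krt18 window, the receptor half-site in the Gm47475 window and none in the Runx3 window.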

How the data were processed

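Methylation was measured in 12 samples, 3 per group, assigned to their origin and replicate from the sample titles. The submitters' processing notes name FastQC, Trim Galore 0.4.1, Bismark 0.16.1 and methylKit and the build GRCm38. The authors deposited, for each sample and CpG, the count of all, methylated and unmethylated reads without normalization, at sites with at least 10 reads in every sample. All 36 of these columns were used. The deposited lists of differentially methylated sites and regions hold differences, p-values and q-values from the authors' comparisons and were not used.

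The percent of methylated reads was computed per site and sample. Corpus and cauda were compared at all 14149 sites by logistic regression on pooled reads (Python 3.11.15, numpy 2.4.6, scipy 1.17.1), and by limma 3.58.1 in R 4.3.3 on the log2 ratio of methylated to unmethylated percent, each plus a pseudo-percent of 1, with all 12 samples sharing 1 estimate of spread. Both were run on simulated reads that held counting error but no scatter between pools. Such data cannot show how either test handles that scatter. P-values measure only the spread between pooled samples, or, in the logistic regression, read counts. Genes were taken from GENCODE M21, with promoters within 2 kb of a transcription start site before exons and introns, and the gene of a site was the one holding it, protein-coding first, or else the nearest transcription start site. Sequence was read with pysam 0.24.0 from GRCm38.p6 of RefSeq, indexed by samtools 1.23.1. The members, gene lists and motifs were chosen with earlier results of these data known.

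Loci were named by rule: those with at least 4 members (there were none), the 8 with the lowest mean caput level, the 6 with the lowest mean corpus and the 6 with the lowest mean cauda level, the 6 with the largest difference between cauda and corpus among called members, and members at genes of the lists. For the lowest levels, a locus with several members was ranked by its lowest member. Gata2, Wnt5b, Nkd1 and Gm16287 were added after their values were seen, not every locus of these sets is described, and the remaining genes are named by position only. Alternatives were other thresholds, a coverage of at least 20 reads, each CpG counted once, other summaries and tests, a replicate block and leaving out each replicate.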

Additional observations from a re-analysis of the deposited data

How the results depend on the processing

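The number of members was 63 with a caput limit of 60% and 170 with one of 70%, 65 with at least 20 reads in each testicular and caput sample, and 115 to 294 when 1 testicular or caput replicate was left out. With at least 20 reads in every sample, 31 members were left, with a mean of 70.2% in corpus and 92.3% in cauda, 0 of them at most 65% in every corpus sample and 28 at least 75% in every cauda sample. The mean in cauda was 96.7% as a median over members, 92.5% for members with caput at most 60% and 94.9% for those with testicular at least 80%. Leaving out 1 replicate of the segment gave means of 72.7% to 75.8% in corpus and 93.5% to 94.3% in cauda, 5 to 17 members at most 65% in corpus and 104 to 108 at least 75% in cauda.

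The members called higher in cauda numbered 12 with at least 20 reads in every corpus and cauda sample, where 37 members were left (32.4% called, against 1.08% of the other high testicular sites), and 7 (6.19%) with a difference above 40 percentage points, against 0.138%. They numbered 0 with an overdispersion term, 0 by limma with a pseudo-percent of 1 or 5 and 0 with a replicate block in limma. By limma with a pseudo-percent of 1 and no block, 62 members had an unadjusted p under 0.05 and a higher cauda level. Leaving out 1 replicate gave 24 to 40 calls, against 1.74% to 3.40% of the other high testicular sites. Every corpus sample was below every cauda sample at 26 of the 37 members with enough reads, against 9.46% of the other high testicular sites, and at 58 to 72 members without 1 replicate, against 8.54% to 14.1%. Such a count cannot fall when a sample is left out. The cause was not tested. All alternatives listed at the start were run.

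With the replicate block in the logistic regression the same 32 members were called. Deviations of corpus and cauda samples of the same number correlated at 0.0598, 0.0252 and 0.0471, too weakly to treat them as paired, although each sample correlated best with its own number.

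Alternatives chosen after seeing the data were members chosen without caput replicate 1 and read without corpus replicate 1, of which 5 were at most 65% in corpus, 25 of 119 were called and 74 (62.2%, against 14% of the high testicular sites not chosen) had every corpus sample below every cauda sample, a corpus limit of 75%, which gave 23, and a cauda limit of 70%, which gave 106. Depth limits single values, since 1 of 10 reads is worth 10 percentage points.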

Other observations

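Beside the members, 6 autosomal sites met the testicular threshold and were at most 65% in caput replicates 2 and 3 but above it in caput replicate 1. There were 2 near Gm12133 and 1 each in an intron of Efcab6, in an exon of Ablim1, in an intron of A230057D06Rik and 716 bp from a transcription start site of Nxpe4. The Efcab6 site, at chr15:83898948, lies 25 bp from a member and had 66.7%, 56.7% and 52.7% in caput replicates 1, 2 and 3, 84.0%, 71.4% and 46.2% in corpus and 100%, 100% and 97.9% in cauda. At chr7:61844937, in A230057D06Rik, caput replicates were at 95.3%, 58.1% and 50% and cauda replicates at 67.5%, 72.4% and 71.4%, below the testicular values of 78.7%, 85.7% and 83.3%. These sites were chosen after their values were seen.

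Among the other high testicular sites, 5 were at most 65% in every corpus sample. At chr5:114513546, between genes, caput replicates 1, 2 and 3 were at 100%, 75% and 84.2%, corpus replicates at 50%, 59.3% and 60.7% and cauda replicates at 90.9%, 75% and 94.1%. Here the corpus samples were lower than every caput sample, and coverage over all 12 samples was 12 to 28 reads. An intergenic site whose nearest start is that of the glutamate receptor gene Gria4, at chr9:4817448, had 76.3%, 51.2% and 82.6% in caput and 60%, 60% and 55.0% in corpus. At chr9:89878277, which lies 31631 bp from a start of the imprinted gene Rasgrf1, caput replicates were at 49.0%, 100% and 86.5% and corpus replicates at 50%, 64.2% and 60%. In an intron of Gm20388, at chr8:121392017, caput replicates were at 64.0%, 56.5% and 66.7%, so that only replicate 3 was above the limit, and corpus replicates at 57.9%, 56.4% and 45.9%. At chr9:111072230, which lies 697 bp from the start of the pseudogene Rp31-ps19, caput replicates were at 10.3%, 64.7% and 85.0% and corpus replicates at 31.2%, 65% and 58.3%. These 5 sites were not members because at least 1 caput replicate was above 65%.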
